A study of Mus musculus and Homo sapiens with 81 samples.

Results

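Mouse B16 melanoma cells carrying a non-targeting guide were given interferon-beta (IFNb) alone or IFNb together with tumor necrosis factor (TNFa), and the 3 libraries with both cytokines were compared with the 3 with IFNb only. These 6 libraries were taken by their labels from 42 B16 libraries and 81 libraries in the whole series, and no measured value entered the choice. The series profiled Cas9-expressing B16 cells and human cancer lines, with or without a guide against the phosphatase gene Ptpn2, by directional, paired-end sequencing of RNA after cytokine treatment. All cells compared here had been infected with lentivirus carrying a guide RNA and express Cas9. The control cells carried the guide Bro3, which has no target. IFNb was used at 1000 U/mL and TNFa at 10 ng/mL, for 48 h. Further groups of 3 libraries each were used beside the comparison: control cells with vehicle, with TNFa alone, with interferon-gamma (IFNg, 100 ng/mL) and with IFNg plus TNFa, and cells with the Ptpn2 guide Ptpn2sg3 (Ptpn2-null) with IFNb and with IFNb plus TNFa. Each genotype was made with 1 guide. Nothing in the labels ties the replicates to separate cultures, and p-values therefore reflect only how far these libraries scatter, which could be technical scatter. In bulk samples, fewer cells of a type and less RNA per cell cannot be told apart.

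TNFa binds its receptor Tnfrsf1a, whose adaptors Traf2, Birc2 and Birc3 lead to the IkB kinases. These kinases free NF-kB dimers (Rela, Relb, Nfkb1, Nfkb2) from IkB proteins such as Nfkbia and Nfkbie, and NF-kB then transcribes its own inhibitors along with chemokine, survival and MHC class I genes. IFNb signals through Ifnar1 and Ifnar2 to a transcription factor complex holding Stat2 and Irf9 that binds interferon-stimulated response elements (ISRE), and MHC class I and Cxcl10 are textbook genes read by both pathways.

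Promoter sequences of 6 genes that rose when TNFa was added are shown because they stand for the NF-kB inhibitors (Nfkbie, Nfkbia), a chemokine (Cxcl10), a growth factor (Csf1) and the heavy and light chains of MHC class I (H2-K1, B2m). Each is the 250 bases before the gene's start in RefSeq, on build GRCm38.p6, written 5′ to 3′ on the gene's strand. Capitals mark matches, on either strand, to the kappaB consensus or to the ISRE core, which is TTTC, any 2 bases and TTTC again. The windows are chr17:45555450-45555699 (plus strand) for Nfkbie, chr12:55492648-55492897 (minus strand) for Nfkbia, chr5:92348890-92349139 (minus strand) for Cxcl10, chr3:107760470-107760719 (minus strand) for Csf1, chr17:34000348-34000597 (minus strand) for H2-K1 and chr2:122147437-122147686 (plus strand) for B2m.
Nfkbie: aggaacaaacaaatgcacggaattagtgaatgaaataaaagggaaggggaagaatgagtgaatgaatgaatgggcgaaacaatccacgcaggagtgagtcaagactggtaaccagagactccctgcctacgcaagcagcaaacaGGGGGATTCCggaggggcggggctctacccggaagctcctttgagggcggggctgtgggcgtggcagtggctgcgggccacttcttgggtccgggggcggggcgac
Nfkbia: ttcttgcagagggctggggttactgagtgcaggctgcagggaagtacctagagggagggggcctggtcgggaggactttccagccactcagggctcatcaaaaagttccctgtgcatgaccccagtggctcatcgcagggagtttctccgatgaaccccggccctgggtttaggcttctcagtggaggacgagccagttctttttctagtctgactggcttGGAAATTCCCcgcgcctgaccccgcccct
Cxcl10: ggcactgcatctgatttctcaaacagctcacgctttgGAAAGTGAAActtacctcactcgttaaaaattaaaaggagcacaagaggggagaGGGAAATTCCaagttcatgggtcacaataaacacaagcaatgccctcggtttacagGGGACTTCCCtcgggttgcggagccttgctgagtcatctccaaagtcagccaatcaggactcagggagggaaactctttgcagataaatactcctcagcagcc
Csf1: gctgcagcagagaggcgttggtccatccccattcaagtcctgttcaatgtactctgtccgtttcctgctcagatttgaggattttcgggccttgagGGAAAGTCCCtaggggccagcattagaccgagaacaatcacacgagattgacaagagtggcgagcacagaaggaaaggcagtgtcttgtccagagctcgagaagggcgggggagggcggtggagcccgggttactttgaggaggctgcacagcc
H2-K1: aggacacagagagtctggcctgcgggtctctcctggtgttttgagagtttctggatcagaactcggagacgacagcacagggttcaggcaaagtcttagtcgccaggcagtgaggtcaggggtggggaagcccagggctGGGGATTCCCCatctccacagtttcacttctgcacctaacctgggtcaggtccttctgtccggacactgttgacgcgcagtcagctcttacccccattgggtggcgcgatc
B2m: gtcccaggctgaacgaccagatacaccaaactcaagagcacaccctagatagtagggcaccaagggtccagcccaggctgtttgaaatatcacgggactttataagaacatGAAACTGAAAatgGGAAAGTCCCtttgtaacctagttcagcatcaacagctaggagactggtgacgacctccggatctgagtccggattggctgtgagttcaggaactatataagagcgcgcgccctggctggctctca
Nfkbie held 1 kappaB match, beginning 106 bases before the start, and no ISRE core. Cxcl10 held 2 kappaB matches, beginning 159 and 103 bases before the start, and an ISRE core beginning 213 bases before it. B2m held an ISRE core and a kappaB match that began at 139 and 126 bases before the start, while the 4 overlapping kappaB matches of H2-K1 lay in 1 stretch. The kappaB consensus was present in 4.51% of all 32851 promoter windows of the table, 300 bases each, and the ISRE core in 3.44%. Among tested genes with a window (9255 of 11726), 6.4% held a kappaB match. The share was 14.4% of genes that rose (506 of 632 had a window), 26.5% of those that rose at least 2-fold (113 of 145 had a window) and 8.51% of genes that fell. For the ISRE core these shares were 3.76%, 6.92%, 10.6% and 2.74%. All 6 printed windows hold a kappaB match, which is not typical of the genes that rose. The windows of Birc3, Tapbp, Irf5, Rgs16 and Tap1, which also rose, held neither motif and are not printed. A match describes the letters of the window and is not a bound site.

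TNFa added to IFNb raised NF-kB inhibitors and subunits, chemokines, MHC class I genes and cell death genes, and lowered genes of pigment production. Of 23336 genes in the table, 11726 had enough counts to be tested, and 1038 of these (8.85%) passed an adjusted p of 0.05 in edgeR's quasi-likelihood test: 632 rose (5.39%) and 406 fell (3.46%). At least 2-fold changes numbered 145 upward and 10 downward, and the median size among called genes was 0.42 on the log2 scale. In 3115 tested genes (26.6%) the 3 libraries of one group all lay above the 3 of the other in CPM, the count per library scaled to a common size and composition. The 6 libraries held 3633742 to 5809861 counts (3498860 to 6432517 over all B16 libraries), and the third library with both cytokines was the shallowest. Pearson correlations of log2 CPM across 10999 better-covered genes (mean log2 CPM 1 or more) were 0.9898 to 0.9936 within the groups and 0.9828 to 0.9857 between them. The 7 melanocyte markers summed to 20920 to 20990 CPM with IFNb and 17490 to 17800 CPM with both cytokines. Of 14 measured leukocyte markers, 8, Ptprc and Cd3e among them, had no count in any of the 6 libraries, and the sum was 3.0 to 4.73 CPM with IFNb and 4.54 to 5.98 CPM with both. The 10 epithelial markers were at 0 apart from Krt7, and the fibroblast and endothelial markers summed to 31.7 to 38.7 CPM and 28.8 to 43.6 CPM.

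**Figure D1:**
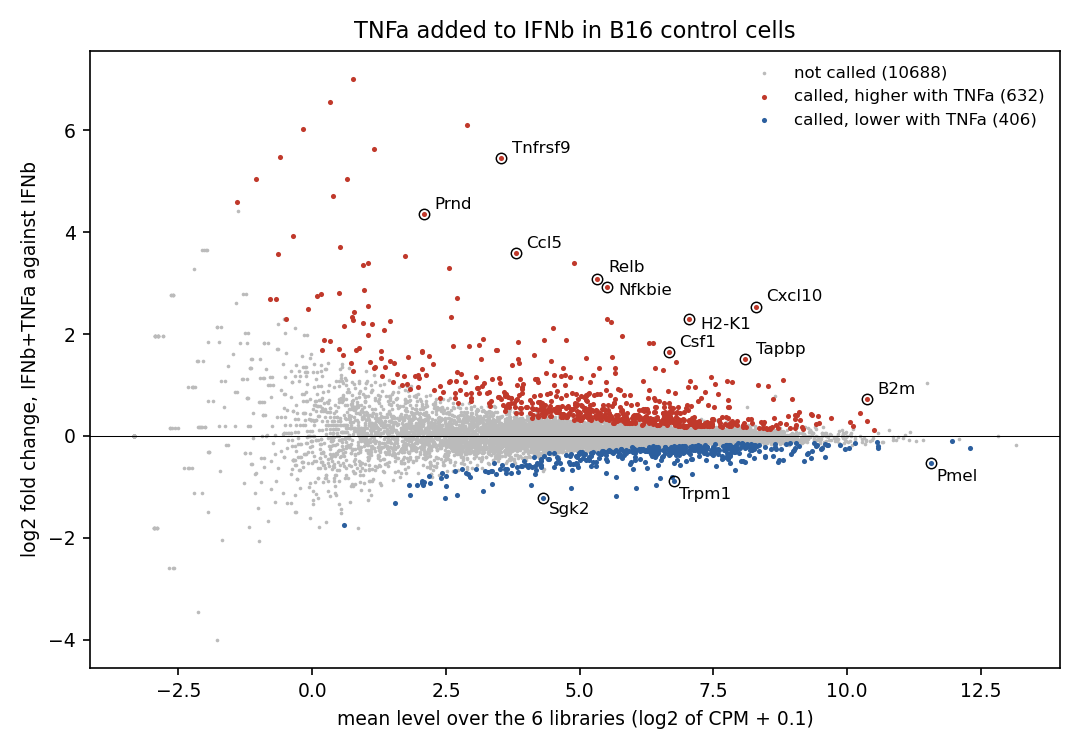
Log2 fold change of each of 11726 tested genes (IFNb with TNFa against IFNb, 3 libraries each) against its mean level over the 6 libraries, as log2 of CPM plus 0.1. Red points are the 632 genes that rose, blue the 406 that fell and grey those not called; the largest changes were increases, and fitted values at the left edge rest on few counts.

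Within the NF-kB circuit, 12 of 20 tested members rose (60%, against 5.39% of all tested genes) and none fell. The list's median log2 fold change was 0.51, against 0.00 (-0.0035) over all tested genes. The IkB protein Nfkbie stood at 12.8, 9.34 and 9.57 CPM with IFNb and at 81.5, 84.5 and 76.6 CPM with both cytokines. Every library with TNFa was far above every library without it, a log2 fold change of 2.92 ± 0.10 (SE; adjusted p = 7.9e-30). Relb, the subunit of the non-canonical NF-kB dimer, went from 7.77, 7.75 and 10.1 CPM to 75.2, 73.2 and 66.7 CPM, also without overlap (3.07 ± 0.13, adjusted p = 2.8e-25). Its partner Nfkb2 rose from 34.3, 38.7 and 36.6 CPM to 129, 129 and 128 CPM (1.82 ± 0.07, adjusted p = 4.4e-27). Nfkbia, the inhibitor that NF-kB restores first, rose from 9.97, 12.3 and 11.6 CPM to 39.6, 42.9 and 43.2 CPM (1.89 ± 0.14, adjusted p = 3.0e-16). The ubiquitin-editing inhibitor Tnfaip3 was low in every library, at 1.01, 0.99 and 0.75 CPM with IFNb and 5.73, 4.06 and 3.20 CPM with both, and the groups did not overlap (2.25 ± 0.36, adjusted p = 4.3e-06). Bcl3, a nuclear partner of Nfkb2, rose from 0.51, 0.60 and 0.38 CPM to 6.09, 4.70 and 7.2 CPM (3.53 ± 0.42, adjusted p = 3.9e-09, 8 counts in the IFNb group), and Tnip1, which binds Tnfaip3, by 1.08 ± 0.07 (adjusted p = 1.1e-18). The remaining members that rose were Nfkb1, Rela, Nfkbib, Cyld and Tnfaip2, by 0.31 to 0.65. The kinases Ikbkb, Chuk, Ikbkg, Ikbke and Map3k14 were among the 8 not called, with Rel, Nfkbiz and Tnip2.

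Of 20 tested genes for TNF receptors and the proteins around them, 4 rose (20%, against 5.39% of all tested genes) and none fell (median 0.09). Birc3, an inhibitor of apoptosis bound to the receptor complex, rose from 5.41, 5.56 and 4.13 CPM to 13.4, 20.7 and 14.9 CPM, with no overlap and a wide spread among the libraries with TNFa (1.69 ± 0.18, adjusted p = 3.5e-10). The adaptors Traf3 (0.59 ± 0.07, adjusted p = 7.7e-09) and Traf2 (0.54 ± 0.10, adjusted p = 0.00011) and the ligase Birc2 (0.56 ± 0.13, adjusted p = 0.0016) rose less. The receptor gene Tnfrsf1a was not called, at 109 ± 6.6 CPM (SD, n = 3) with IFNb and 118 ± 9.1 CPM (SD, n = 3) with both (0.12 ± 0.06, adjusted p = 0.28 by edgeR), and neither was the kinase Ripk1.

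Among chemokines, 9 of 20 were tested and 4 of these rose (44.4%, against 5.39% of all tested genes). Cxcl10, which draws T cells through Cxcr3, stood at 89.6, 88.6 and 97.2 CPM with IFNb and at 540, 526 and 535 CPM with both cytokines. Both groups were tight and lay far apart, a log2 fold change of 2.54 ± 0.06 (adjusted p = 1.0e-37), or 5.82-fold. Ccl5, which attracts T cells, went from 2.03, 2.38 and 1.88 CPM to 25.1, 26.1 and 25.6 CPM (3.6 ± 0.17, adjusted p = 1.3e-23). Cxcl11, another Cxcr3 ligand, was near the floor with IFNb at 0.51, 0.40 and 0 CPM and reached 3.40, 2.99 and 3.73 CPM with TNFa (5 counts in the IFNb group, adjusted p = 5.6e-07). Cxcl1, a neutrophil attractant, had no count with IFNb and stood at 2.15, 2.13 and 2.67 CPM with both cytokines, a level at least 12.4-fold higher when the IFNb group is set to 3 counts in all. The 5 others tested, Ccl2, Ccl25, Ccl28, Cxcl9 and Cx3cl1, were not called, and Ccl2 had no count in these 6 libraries.

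Of 14 tested cytokines and growth factors, 3 rose (21.4%, against 5.39% of all tested genes): Csf1, Tgfb1 and Lif. Csf1, the growth factor of macrophages, rose from 44.8, 52.9 and 49.7 CPM to 159, 159 and 142 CPM with no overlap (1.65 ± 0.08, adjusted p = 1.6e-22). Tgfb1 rose from 3.21, 2.38 and 5.82 CPM to 14, 12.2 and 13.6 CPM (1.79 ± 0.22, adjusted p = 7.5e-09). The call of Lif rested on 8 counts in the IFNb group and ended when any of 4 single libraries was left out: the log2 fold change of 1.86 was 1.53 without IFNb replicate 2, 1.96 without IFNb replicate 3, and 1.80 and 1.84 without replicates 1 and 2 of IFNb with TNFa. Il15, Il18 and Vegfa were among the 11 not called.

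MHC class I and antigen processing had the largest share of rising members among lists of over 10 tested genes. In this list 13 of 19 rose (68.4%, against 5.39% of all tested genes) and none fell (median 0.72), or 1 fell without replicate 2 of IFNb with TNFa. The heavy chain H2-K1 stood at 48.0, 39.9 and 45.6 CPM with IFNb and at 222, 230 and 207 CPM with both. The groups were far apart, a log2 fold change of 2.30 ± 0.08 (adjusted p = 1.8e-28), or 4.93-fold. H2-Q4 rose by 1.95 ± 0.11 (21.5, 19.5 and 27.2 CPM to 89.0, 93.5 and 80.8 CPM, adjusted p = 1.6e-20) and H2-D1 by 1.11 ± 0.06 (274, 294 and 286 CPM to 607, 635 and 594 CPM, adjusted p = 5.5e-22). Reads of these related genes could be split between copies by the counting, so their separate values are uncertain. Tapbp, which edits the peptides loaded, rose from 140, 141 and 144 CPM to 402, 412 and 399 CPM (1.51 ± 0.05, adjusted p = 1.7e-30). The light chain B2m was already high with IFNb, at 1028, 955 and 998 CPM, and reached 1615, 1597 and 1700 CPM (0.72 ± 0.05, adjusted p = 1.4e-18). The peptide transporter gene Tap1 rose by 0.51 ± 0.06, from 62.4, 59.0 and 60.2 CPM to 88.1, 83.5 and 86.5 CPM (adjusted p = 1.7e-08). The others that rose were Tap2, Tapbpl, Psmb8, Psmb10, Psme1, Erap1 and the transactivator Nlrc5. Not called were Psmb9, Psme2, H2-T10, H2-T23, H2-T24 and H2-M3. Psmb9 and Tap1 overlap in the genome, and how such reads were counted is not given. Of 7 tested MHC class II genes 1 rose (14.3%, against 5.39% of all tested genes). It was Cd74, the invariant chain, with 3 counts over the IFNb group and 4.30, 2.35 and 0.80 CPM with both cytokines, a ratio of 14.7 (95% counting interval 4.67 to 74.5). With only the compared groups in the fit, Cd74 had no value, so 0 class II genes were called higher there.

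Of 9 tested T cell ligands and adhesion molecules, 5 rose (55.6%, against 5.39% of all tested genes) and 1 fell (11.1%, against 3.46%). Tnfrsf9, the costimulatory receptor also called 4-1BB, went from 0.51, 0.60 and 0.38 CPM (8 counts) to 25.1, 21.8 and 20.3 CPM (5.45 ± 0.35, adjusted p = 2.2e-17). The melanoma adhesion molecule Mcam rose by 0.73 ± 0.05 (310, 291 and 286 CPM to 500, 498 and 469 CPM), the hyaluronan receptor Cd44 by 0.44 ± 0.06 and the phagocytosis checkpoint ligand Cd47 by 0.36 ± 0.08. Cd274, which encodes PD-L1, rose from 26.5, 19.7 and 23.5 CPM to 33.0, 28.2 and 35 CPM (0.45 ± 0.11, adjusted p = 0.0024). Without IFNb replicate 2 the change in Cd274 was 0.35 and was no longer called (adjusted p = 0.054 by edgeR). Ncam1 fell by 0.57 ± 0.16 on the log2 scale (adjusted p = 0.012), and without replicate 2 of either group the list had 0 falling members. Icam1 and Vcam1, 2 well-known TNFa targets, had too few counts to be tested.

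Of 40 tested antiviral interferon-stimulated genes, 7 rose (17.5%, against 5.39% of all tested genes) and 2 fell (5%, against 3.46%), with a median of 0.07. The falling members numbered 1 without IFNb replicate 3 or replicate 2 of IFNb with TNFa. Isg15, a ubiquitin-like modifier, stood at 238, 251 and 231 CPM with IFNb and at 229, 233 and 251 CPM with both, and the groups overlapped (-0.02 ± 0.11, adjusted p = 0.97). Parp14 rose from 150, 144 and 150 CPM to 330, 314 and 286 CPM (1.07 ± 0.07, adjusted p = 2.5e-17). Oas3 rose from 1.86, 1.99 and 2.06 CPM to 10.2, 9.61 and 10.1 CPM (2.33 ± 0.25, adjusted p = 6.4e-10), and it had no count with vehicle or with TNFa alone. Dhx58, Ifi44, Oas2, Herc6 and Slfn2 rose too, Dhx58 by 0.52 ± 0.07 and Slfn2 from 1 count over the IFNb group to 1.07, 1.5 and 1.33 CPM. The genes that fell were Rsad2, an antiviral radical enzyme, from 325, 308 and 352 CPM to 264, 262 and 288 CPM (-0.28 ± 0.06, adjusted p = 8.0e-04), and Usp18, which removes Isg15, by -0.24 ± 0.06.

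The GBP and IRG GTPases, which attack vacuoles of intracellular pathogens, rose in 7 of 16 tested members (43.8%, against 5.39% of all tested genes) and fell in none (median 0.67). Tgtp2 rose by 1.05 ± 0.22, though its reads cannot be told apart with certainty from those of its near-identical neighbour Tgtp1. Gbp2 rose by 0.66 ± 0.08 (38.7, 34.8 and 42.6 CPM to 62.7, 61.1 and 59.0 CPM), Igtp by 0.36 ± 0.07, Gbp3 by 0.31 ± 0.06 and the abundant Irgm1 by 0.23 ± 0.05.

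In the interferon receptor, JAK-STAT and IRF list, 9 of 28 tested genes rose (32.1%, against 5.39% of all tested genes) and 1 fell (3.57%, against 3.46%). The list's median was 0.17. The factor Irf5 went from 0.51, 0.99 and 1.69 CPM to 10.2, 10.7 and 10.7 CPM (3.30 ± 0.28, adjusted p = 6.5e-14). Irf1, a transcription factor of the interferon response, rose from 27.6, 30.2 and 32.5 CPM to 49.8, 56.1 and 54.2 CPM (0.83 ± 0.07, adjusted p = 2.1e-13). The IFNg receptor chain Ifngr2 rose from 99.5, 94.0 and 97.0 CPM to 187, 178 and 202 CPM (0.96 ± 0.06, adjusted p = 7.3e-19). Irf2 rose by 0.46 ± 0.10. Irf7 rose by 0.20 ± 0.06 (adjusted p = 0.019), a call that ended without IFNb replicate 1 (0.18) or 2 (0.18) or without replicate 1 (0.18) or 2 (0.20) of IFNb with TNFa. The Irf7 call also ended in edgeR with no filter on low counts (adjusted p = 0.053). Socs3, a feedback inhibitor of JAK kinases, was the member that fell (-0.74 ± 0.21, adjusted p = 0.016), and without replicate 2 or 3 of IFNb with TNFa the list had 0 falling members. Ptpn2 itself, the phosphatase that the study deletes elsewhere, was at 52.2, 44.7 and 54.6 CPM and then 57.7, 61.1 and 59.2 CPM (0.23 ± 0.09, adjusted p = 0.10).

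**Figure D2:**
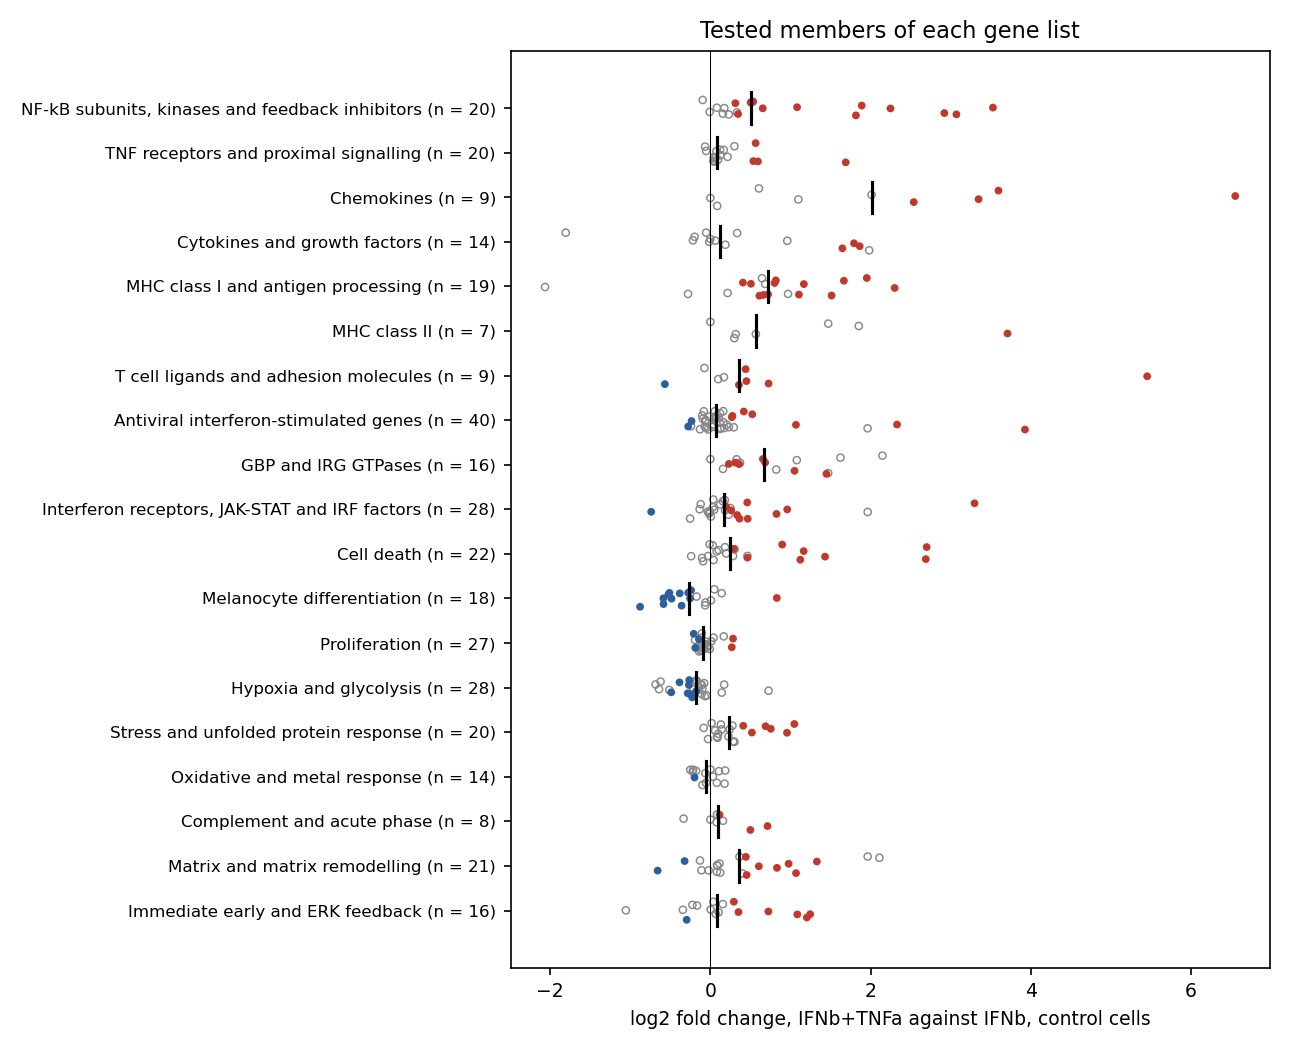
Log2 fold change (IFNb with TNFa against IFNb, control cells) of each tested member of 19 gene lists, with a black bar at the list's median. Filled points passed an adjusted p of 0.05 (red rose, blue fell), open points did not; MHC class I (13 of 19) and the NF-kB circuit (12 of 20) lie mostly to the right and melanocyte genes (11 of 18 fell) to the left, and members with few counts have uncertain positions.

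Cell death genes rose in 8 of 22 tested members (36.4%, against 5.39% of all tested genes) and fell in none (median 0.24). The inflammatory caspase Casp4 went from 1.18, 1.99 and 2.06 CPM to 12, 12.2 and 9.34 CPM (2.70 ± 0.23, adjusted p = 1.8e-13). Zbp1, a sensor that starts necroptosis, rose from 7.44, 7.95 and 8.07 CPM to 22.2, 20.9 and 19.7 CPM (1.43 ± 0.12, adjusted p = 9.8e-14). The death-promoting Bbc3 (1.12 ± 0.18) and Bid (0.90 ± 0.07) rose, and so did the survival gene Bcl2l1 (0.46 ± 0.08). Gsdmd and Mlkl, the pore formers of pyroptosis and necroptosis, and Casp12 were the other members that rose. Casp8 and Mcl1 were among the 14 not called.

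Stress genes rose in 6 of 20 tested members (30%, against 5.39% of all tested genes). They were led by Gadd45b (1.05 ± 0.16), Atf3 (0.96 ± 0.16), the cystine transporter Slc7a11 (0.69 ± 0.12) and the cell cycle inhibitor Cdkn1a (438, 454 and 454 CPM to 562, 612 and 616 CPM, 0.41 ± 0.05). Immediate early genes rose in 6 of 16 (37.5%, against 5.39% of all tested genes) and fell in 1 (6.25%, against 3.46%). The AP-1 subunits Junb (1.25 ± 0.13) and Fosl2 (1.21 ± 0.12) and the factor Klf6 (144, 135 and 136 CPM to 282, 288 and 310 CPM, 1.08 ± 0.05, adjusted p = 8.7e-23) were higher in all 3 libraries with TNFa. Dusp4, a phosphatase of ERK feedback, fell by 0.30 ± 0.07, a call that ended at -0.25 without IFNb replicate 2.

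Melanocyte differentiation genes fell in 11 of 18 tested members (61.1%, against 3.46% of all tested genes) and rose in 1 (5.56%, against 5.39%). The list's median was -0.27. Pmel, which builds the fibrils of the melanosome, stood at 3503, 3711 and 3548 CPM with IFNb and at 2558, 2502 and 2412 CPM with both. All 3 libraries with TNFa were below all 3 without (-0.53 ± 0.04, adjusted p = 1.0e-16). The channel Trpm1 went from 142, 139 and 138 CPM to 74.0, 78.6 and 75.5 CPM (-0.88 ± 0.06, adjusted p = 3.0e-16), the largest fall in the list. Rab27a, which moves melanosomes, fell by 0.51 ± 0.06 and the melanosome transporters Slc45a2 and Slc24a5 by 0.49 ± 0.05 and 0.36 ± 0.06. The pigment enzymes Tyr (319, 320 and 331 CPM to 247, 241 and 258 CPM, -0.38 ± 0.08, adjusted p = 5.0e-04) and Dct (-0.24 ± 0.04) fell less, and Tyrp1 was not called (-0.17 ± 0.06, adjusted p = 0.069). Mitf, the lineage's master factor, fell from 596, 535 and 565 CPM to 444, 448 and 509 CPM (-0.28 ± 0.05, adjusted p = 1.7e-04), and Sox10 was not called. Kit was the member that rose (0.83 ± 0.23, adjusted p = 0.011), a call that ended without IFNb replicate 1 (0.64) or 3 (0.76).

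Of 27 proliferation genes, 2 rose (7.41%, against 5.39% of all tested genes) and 3 fell (11.1%, against 3.46%). The count that fell was 1 without IFNb replicate 1 or 3 or without replicate 2 or 3 of IFNb with TNFa, 1 with no filter and 5 with only the compared groups. The count that rose was 1 without IFNb replicate 1 or 3 or replicate 2 of IFNb with TNFa. Mki67, the marker of cycling cells, stood at 783, 756 and 797 CPM with IFNb and at 800, 797 and 724 CPM with both, with overlapping groups (-0.01 ± 0.06, adjusted p = 0.97). Ccnd1 rose by 0.28 ± 0.05 and the replication helicase gene Mcm2 fell by 0.19 ± 0.04. Hypoxia and glycolysis genes fell in 8 of 28 tested members (28.6%, against 3.46% of all tested genes) and rose in none (median -0.18). The falling members numbered 4 without IFNb replicate 2 and 5 without replicate 2 or 3 of IFNb with TNFa, and 1 rose without that replicate 3 or with only the compared groups. In Ptpn2-null cells 2 of the 28 fell (7.14%, against 3.5% of all tested genes) and 1 rose (3.57%, against 5.87%). The hexokinase Hk2 went from 183, 160 and 170 CPM to 141, 128 and 123 CPM (-0.39 ± 0.08, adjusted p = 3.2e-04), Aldoa fell by 0.24 ± 0.06 and Tpi1 by 0.18 ± 0.04. Pdk1 fell by 0.49 ± 0.12, and the call ended at -0.40 without replicate 1 of IFNb with TNFa. Slc16a3 (-0.68 ± 0.26) and Bnip3 (-0.64 ± 0.22) were not called (adjusted p = 0.12 and 0.066 by edgeR), although in both genes the groups did not overlap. Bnip3 was called by DESeq2 (adjusted p = 0.021) and by edgeR without IFNb replicate 3 (-0.76, adjusted p = 0.042). In edgeR it was also called with no filter (adjusted p = 1.4e-04), only the compared groups (2.3e-04) and a replicate block (0.046). Slc16a3 was called in edgeR with no filter (adjusted p = 2.5e-05) and with only the compared groups (adjusted p = 8.5e-05).

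Matrix genes rose in 7 of 21 tested members (33.3%, against 5.39% of all tested genes) and fell in 2 (9.52%, against 3.46%). Postn, a matricellular protein, rose from 23.8, 23.8 and 22.5 CPM to 48.4, 51.7 and 47.2 CPM (1.07 ± 0.10, adjusted p = 1.9e-12), and the protease Adamts1 from 244, 245 and 254 CPM to 492, 496 and 472 CPM (0.98 ± 0.06, adjusted p = 4.8e-18). Fn1 rose by 0.83 ± 0.10, Col5a1 by 0.60 ± 0.10 and the abundant Sparc by 0.44 ± 0.05, while Col1a2 and Col4a1 fell. The falling members numbered 1 without IFNb replicate 2 or without replicate 2 or 3 of IFNb with TNFa. Ceruloplasmin (Cp) rose by 0.71 ± 0.06 and was 1 of 3 that rose among 8 tested complement and acute phase genes (37.5%, against 5.39% of all tested genes). That count was 1 without IFNb replicate 3 or replicate 2 of IFNb with TNFa, where C1ra and Lgals3bp were no longer called. In the oxidative list 1 of 14 was called, a fall (7.14%, against 3.46% of all tested genes). It was Sod2, a textbook TNFa target (-0.21 ± 0.07, adjusted p = 0.044). That call ended in 5 of the 6 fits that left out a library, at -0.18 to -0.23, IFNb replicate 2 being the library whose loss did not end it. It also ended by DESeq2 (adjusted p = 0.060) and, in edgeR, with no filter (adjusted p = 0.105) and with the length trend removed (adjusted p = 0.075).

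Outside the lists, Neurl3, Prnd, Ttn and Rgs16 were among the genes with the largest increases. Neurl3, a ubiquitin ligase, had 3 counts over the IFNb group and stood at 13.6, 13.4 and 16.3 CPM with both cytokines, a ratio of 77.4 (95% counting interval 26.1 to 379). Ttn, the giant sarcomere gene, went from 5.24, 3.18 and 6.94 CPM to 53.7, 53.0 and 56.0 CPM (3.39 ± 0.15, adjusted p = 3.3e-25), and the signalling regulator Rgs16 from 16.2, 14.5 and 15.2 CPM to 73.1, 79.8 and 72.3 CPM (2.29 ± 0.11, adjusted p = 5.0e-24). Prnd, a prion-like protein gene, rose by 4.36 ± 0.39 from 6 counts over the IFNb group. Among the decreases, the kinase gene Sgk2 went from 25.9, 28.4 and 29.1 CPM to 11.3, 11.5 and 13.1 CPM (-1.22 ± 0.14, adjusted p = 9.1e-10). The lipid transporter Abca12 (71.3, 67.0 and 74.1 CPM to 31.5, 30.5 and 32.5 CPM, -1.17 ± 0.11) fell by about as much. So did the gap junction gene Gjb2 (-1.02 ± 0.09), the neuronal membrane gene Gpm6a (-0.97 ± 0.11), Megf6 (-1.01 ± 0.12), the sodium channel Scn1a (-1.07 ± 0.19) and the lipase Mgll (-0.96 ± 0.15). Genes with the largest changes were taken only from those whose groups did not overlap, so the lack of overlap in them was set by the choice.

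Beside the other control groups, the levels of these genes fell into different patterns. IFNb alone against vehicle shares the IFNb libraries with the comparison above, so the values are only set side by side. IFNb alone changed 3578 genes (30.5%: 1991 higher, 17%, and 1587 lower, 13.5%), and 37 of 40 tested antiviral genes rose with it. Relb averaged 23.4 CPM with vehicle, 8.55 with IFNb, 99.9 with TNFa and 71.7 with both. Nfkbie averaged 19.0, 10.6, 75.4 and 80.9 CPM in the same order, so that the level with IFNb was the lowest for both genes. Cxcl10 averaged 21.1, 91.8, 82.3 and 534 CPM, and H2-K1 9.80, 44.5, 34.2 and 220 CPM. B2m averaged 150.1, 993, 395 and 1637 CPM, rising with each cytokine and highest with both. Irf7 averaged 0.305, 144, 2.19 and 165 CPM, which put nearly all of its rise in the groups with IFNb. Ccl5, at 1.67, 2.10, 18.9 and 25.6 CPM, was high only where TNFa was given among these 4 groups.

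**Figure D3:**
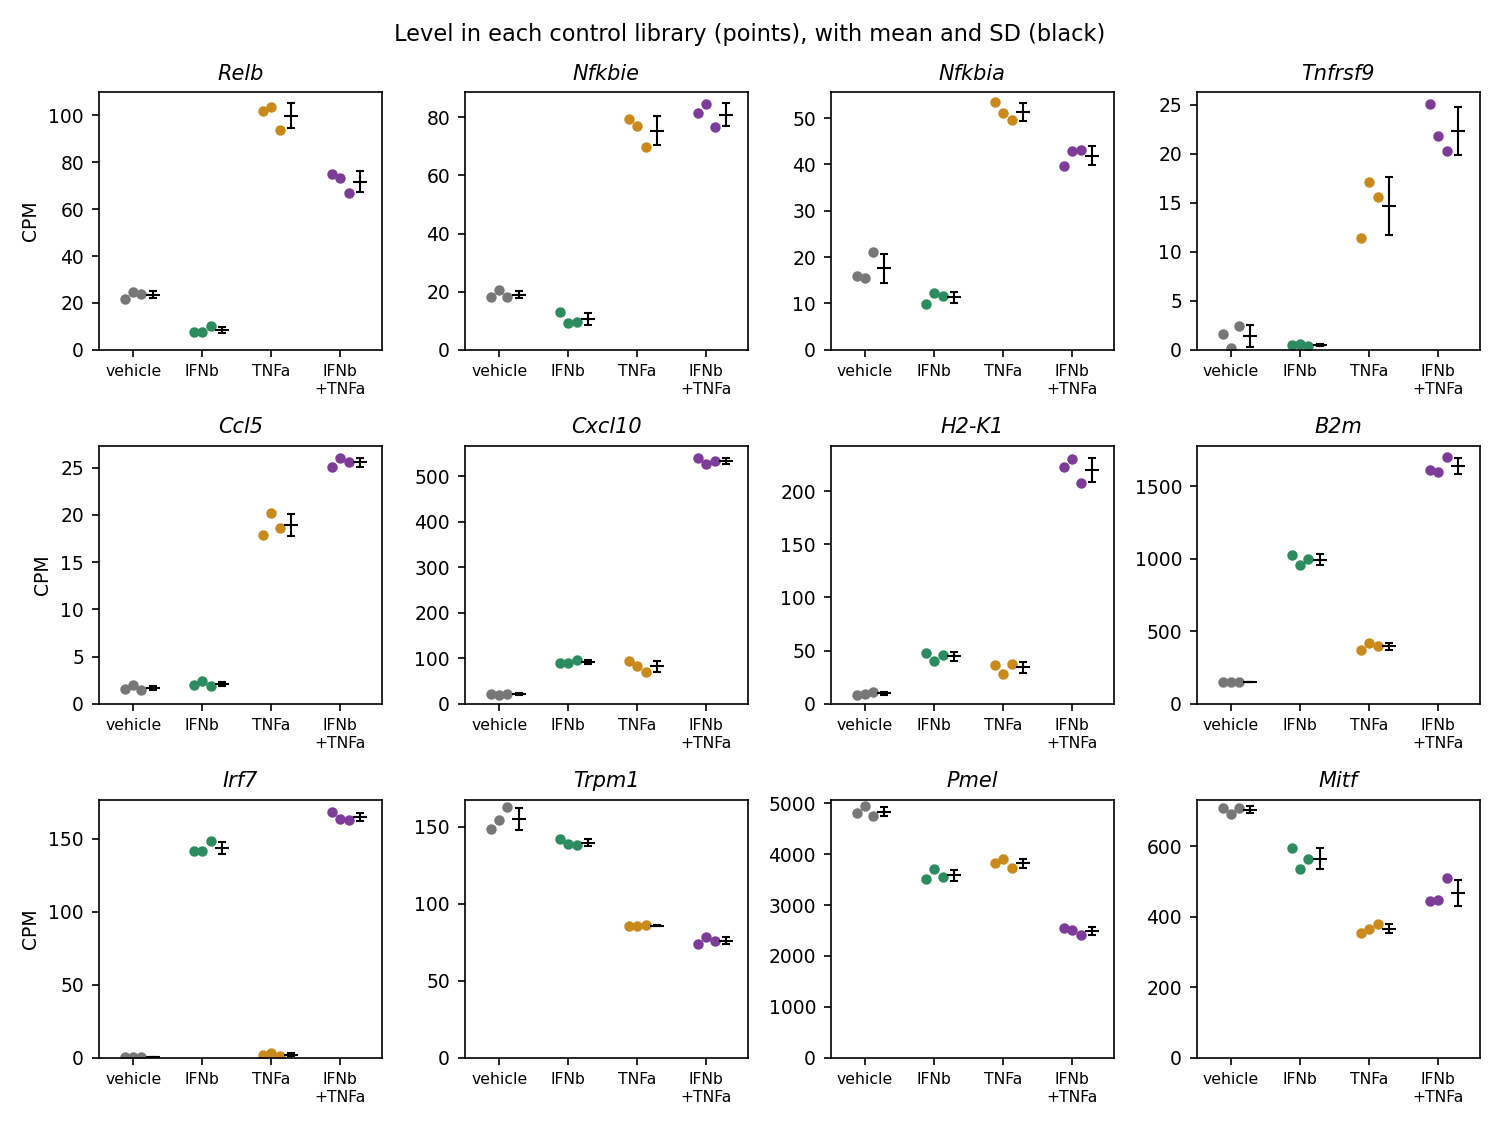
CPM of 12 genes in each of the 3 libraries of 4 control groups (vehicle, IFNb, TNFa, IFNb with TNFa), with the mean and SD in black; each axis starts at 0. Cxcl10 and H2-K1 are highest with both cytokines, Irf7 is high with IFNb with or without TNFa, and Trpm1 is low in both groups with TNFa.

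TNFa alone was measured in libraries that share none with the comparison under IFNb. Given alone, TNFa changed 5591 genes (47.7% of 11726: 2897 higher, 24.7%, and 2694 lower, 23%), against 1038 under IFNb. Which direction held more genes depends on the setting: it was 2493 higher and 2682 lower by DESeq2, 2711 and 2821 with RLE scaling, 2291 and 2946 with no filter, 2764 and 3062 with only the compared groups, 2142 and 2720 without vehicle replicate 2, and 2822 and 2051 with the length trend removed. Of the 632 genes that rose under IFNb, 413 also rose with TNFa alone, 65.3% of the first list and 14.3% of the second, and 30 were called in the opposite direction. Of the 406 that fell, 251 also fell alone (61.8% and 9.32%), and 11 were opposite. Across the 10999 genes used above, the log2 fold changes correlated at Pearson r = 0.40, a description over genes that are not independent replicates. Fold changes of TNFa alone fell with transcript length (Spearman rho = -0.455 over 11597 genes), while those under IFNb did not (rho = -0.0129).

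The difference itself, TNFa's log2 effect with IFNb minus its effect alone, was called for 3079 genes (26.3%), 1731 positive (14.8%) and 1348 negative (11.5%). With the length trend removed from each library the count was 2490, 1081 positive and 1409 negative, so the balance of directions depends on that setting, and 1780 of the 3079 calls were shared. The differences rose with transcript length (rho = 0.45 before that removal). Without a filter on low counts it was 1960 positive and 978 negative. Among the 632 genes that rose under IFNb the difference was called for 187 (125 positive, 62 negative), and among the 406 that fell for 122 (41 positive, 81 negative). The choice of these genes and the difference use the same libraries with IFNb, which by itself leans the signs this way. Over all tested genes 26.3% were called. Relb and Nfkbie had larger effects under IFNb: Relb rose by 2.09 alone and 3.07 with IFNb (difference 0.98 ± 0.19, adjusted p = 1.1e-04), and Nfkbie by 1.99 alone and 2.92 with IFNb (0.93 ± 0.15, adjusted p = 7.5e-06). Bcl3, of the same list, had a called negative difference, but with 3 counts or fewer in a group. That call ended in edgeR with a replicate block (-3.75, adjusted p = 0.053) and by DESeq2 (-3.19, adjusted p = 0.060). The difference was 0.70 ± 0.17 for Rgs16 and 0.59 ± 0.11 for Cxcl10 (adjusted p = 5.7e-05). For H2-K1 it was 0.52 ± 0.16 (adjusted p = 0.015), but 0.39 without TNFa replicate 2 and 0.41 without vehicle replicate 3, where it was no longer called. Tnfrsf9 differed by 2.13 ± 0.68, a call that ended at 1.41 without vehicle replicate 3.

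The differences of Irf7, Ddx58, Isg15 and B2m had the opposite sign. Irf7 rose by 2.76 with TNFa alone and by 0.20 with IFNb (difference -2.56 ± 0.45, adjusted p = 1.6e-04). With vehicle Irf7 was near the floor, so its rise alone and its difference rest on few counts there. The RNA sensor Ddx58 rose by 2.35 alone, from 6.71, 9.74 and 8.38 CPM to 49.1, 42.9 and 35.9 CPM. Under IFNb it was at 410, 398 and 413 CPM and then 473, 450 and 441 CPM, not called in the main fit (0.16 ± 0.06). That small rise was called by DESeq2 (adjusted p = 0.020) and by edgeR with only the compared groups (0.0053) or the length trend removed (0.015). The difference of Ddx58 was -2.19 ± 0.13 (adjusted p = 6.5e-18). Isg15 differed by -1.41 ± 0.43 and B2m by -0.68 ± 0.07 (adjusted p = 6.6e-10), or by -1.11 and -0.40 with the length trend removed. Mitf and Tyr fell less under IFNb: Mitf by 0.94 alone and 0.28 with IFNb (difference 0.66 ± 0.08, adjusted p = 2.3e-08), and Tyr by 1.25 and 0.38 (0.87 ± 0.11, adjusted p = 7.8e-07). With the length trend removed the differences were smaller, 0.49 for Mitf and 0.60 for Tyr, and both were still called. Sgk2 was the reverse, falling by 1.22 with IFNb and not called alone (-0.25), a difference of -0.98 ± 0.19. Among genes with long transcripts, Bmpr2, a BMP receptor, was at 68.5, 86.9 and 72.5 CPM with vehicle and 8.68, 11.4 and 12 CPM with TNFa, but at 79.4, 84.0 and 81.3 CPM with IFNb and 86.0, 82.0 and 76.0 CPM with both. That difference was 2.80 ± 0.33, and 2.34 with the length trend removed.

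**Figure D4:**
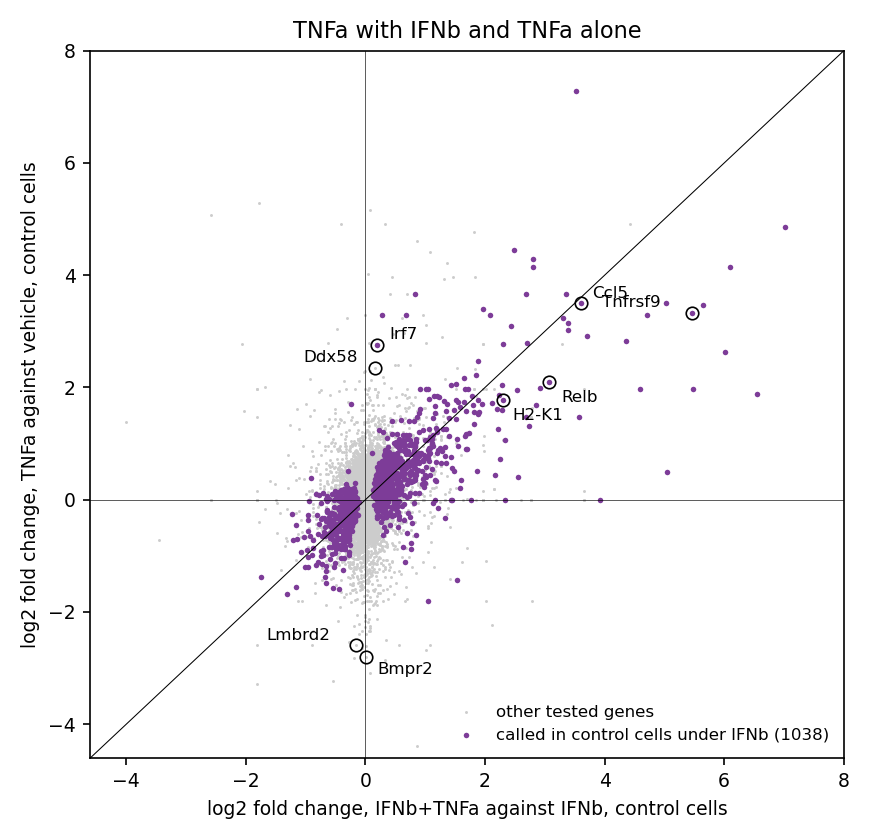
Log2 fold change of TNFa alone (against vehicle, vertical) against that of TNFa added to IFNb (horizontal) in control cells, 11726 genes, 3 libraries per group. Purple points are the 1038 genes called under IFNb and circles the labelled genes; Irf7 and Ddx58 lie above the diagonal (smaller effect under IFNb), and Relb and Tnfrsf9 below it.

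The effect of TNFa was also measured with IFNg in place of IFNb, in 6 other libraries. The difference between its effect with IFNb and with IFNg was called for 4673 genes (39.9%: 2601 positive, 22.2%, and 2072 negative, 17.7%). Among the 632 genes that rose under IFNb, 337 had a called difference, negative in 242 of them, and among the 406 that fell, 236, positive in 203. Here too the choice of genes and the difference share the libraries with IFNb, so these counts are not independent of the choice. These differences rose with transcript length (rho = 0.363), and the part of length in them was not tested beyond refitting with the trend removed, where each difference named here was still called. In that fit 2136 differences were positive and 2264 negative, so the balance of directions turned. Ccl5 stood at 15.6, 13.9 and 13.2 CPM with IFNg and at 1589, 1661 and 1724 CPM with IFNg and TNFa, against 25.1 to 26.1 CPM with IFNb and TNFa (difference -3.26 ± 0.30, adjusted p = 5.8e-13). Cxcl11 reached 350 ± 22 CPM (SD, n = 3) with IFNg and TNFa, which is an end level and not a change. The difference of Cxcl11 was -4.37 ± 0.96 (adjusted p = 2.5e-04) and rested on few counts in the IFNb group. Apod, an apolipoprotein gene, was at 4.81, 4.86 and 5.98 CPM with IFNg and 66.3, 77.3 and 70.5 CPM with TNFa added, but at 11.7, 9.73 and 8.07 CPM and then 9.85, 9.18 and 7.74 CPM in the IFNb pair (-3.91 ± 0.28). The mitosis genes Aspm and Fam83d differed in the other direction. Aspm, a spindle pole protein, fell from 148, 127 and 140 CPM to 20.2, 19.1 and 18.4 CPM when TNFa was added to IFNg and was not called under IFNb (difference 2.96 ± 0.13, adjusted p = 1.0e-25), and Fam83d, at 54.0, 52.8 and 50.7 CPM and then 8.14, 8.92 and 7.96 CPM, differed by 2.86 ± 0.15.

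Ptpn2-null cells gave the same comparison in 6 other libraries. Ptpn2 itself stood at 11.9, 11.5 and 9.78 CPM with IFNb and at 10.6, 9.51 and 11.7 CPM with both, below all 6 control libraries (44.7 to 61.1 CPM). TNFa added to IFNb changed 1098 genes in these cells (9.36%: 688 higher, 5.87%, and 410 lower, 3.5%). Of the 632 genes that rose in control cells 480 rose in Ptpn2-null cells, 75.9% of the first list and 69.8% of the second, and 628 had the same sign. Of the 406 that fell, 237 fell (58.4% and 57.8%), 399 had the same sign and 1 was called in the opposite direction. The log2 fold changes of 10999 genes correlated at r = 0.744 across genes. Relb rose by 2.89 in Ptpn2-null and 3.07 in control cells, Cxcl10 by 2.54 in each, Csf1 by 1.85 and 1.65, and Pmel fell by 0.54 and 0.53.

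The difference between genotypes was called for 1 gene of 11726 (0.00853%), with 363 genes at an unadjusted p under 0.05, and DESeq2 also called 1. That gene was H2-K1, which in Ptpn2-null cells was at 127, 120 and 120 CPM with IFNb and at 405, 398 and 420 CPM with both. It was higher than in control cells in both states and rose by 1.74 against 2.30 (difference -0.56 ± 0.11, adjusted p = 0.034). The call ended in 9 of 12 fits that left out a library, where the difference was -0.49 (without control IFNb replicate 2) to -0.57. In 2 of these fits another gene was called, with a positive difference: without replicate 1 of IFNb with TNFa in control cells and without replicate 2 of IFNb with TNFa in Ptpn2-null cells. With no filter on low counts the test called 6 genes, with only the compared groups 3 and with the length trend removed 2, H2-K1 among them each time.

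**Figure D5:**
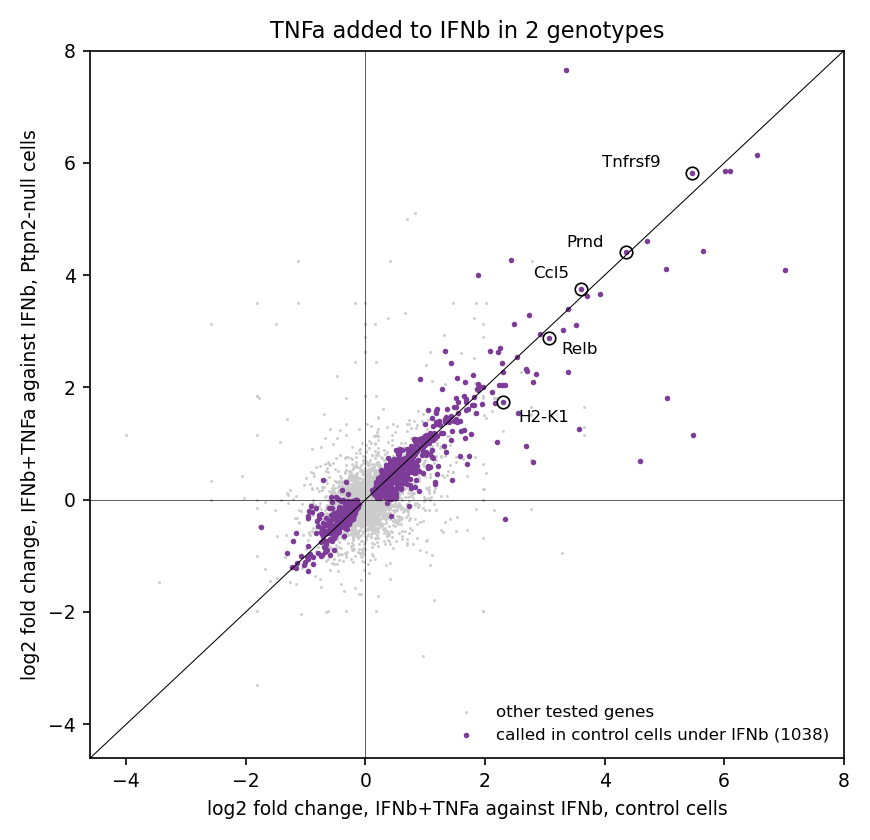
Log2 fold change of TNFa added to IFNb in Ptpn2-null cells (vertical) against control cells (horizontal) for 11726 genes, 3 libraries per group. Purple points are the 1038 genes called in control cells and circles the labelled genes; most lie near the diagonal, with H2-K1 below it (1.74 against 2.30).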

How the data were processed

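RNA from B16 cells was sequenced with directional, paired-end libraries, and the authors deposited whole-number read counts per gene. The submitters' processing notes name bcl2fastq 2.17.1.14, Trimmomatic 0.33, Bowtie2 2.2.4, HTSeq 0.6.1p1, DESeq2 and mm10. Which annotation and strand setting the counting used is not given in the sources used here, so overlapping genes (Psmb9 and Tap1) and near-identical ones (Tgtp1 and Tgtp2, Gbp, H2 and Oas genes) have uncertain values.

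The deposited counts of all 42 B16 libraries (14 groups of 3) were fitted together with edgeR 4.0.16 in R 4.3.3: genes kept by filterByExpr, TMM scaling, the robust quasi-likelihood test and Benjamini-Hochberg adjustment over all tested genes, called at 0.05. CPM are scaled by TMM. Each SE was obtained from a gene's log2 fold change and its F statistic (their ratio after taking the root of F), which can be too small at few counts. Counting intervals are at 95% and cover counting error only. A difference between effects was tested as an interaction.

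On simulated counts for this comparison (11680 genes), 163 of 200 changed genes were recovered, 73% of those changed 1.5-fold and 90% of those changed 2-fold. Of 170 genes called there, 7 had not been changed. The changed genes were drawn from those with a mean of at least 2 CPM, so recovery at lower levels was not measured. The members and gene lists were chosen with earlier results of these data known. Genes were named by rule: the 15 largest changes per direction, up to 5 called members of a list by p, up to 8 per direction of a difference, and a fixed set. Usp18, Tnfrsf1a, Tyrp1, Ncam1, Socs3 and other list members outside this rule were named after their values were seen, to account for a list. Some results are not reported here. Alternatives were DESeq2 1.42.0, RLE scaling, no filter, only the compared groups, a replicate block, removal of the transcript length trend, and each library left out.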

Additional observations from a re-analysis of the deposited data

Results flagged for a closer look

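The effect of TNFa differed between settings for many genes, by the interaction test in edgeR, at an adjusted p under 0.05. Between TNFa with IFNb and TNFa alone the difference was called for 3079 genes. Of those named by rule, the log2 difference was positive for Bmpr2 (2.80), Cbl (2.42), Cxcl10 (0.59), Gm9766 (2.85), H2-K1 (0.52), Igsf9b (2.63), Lmbrd2 (2.44), Mitf (0.66), Nfkbie (0.93), Relb (0.98), Rgs16 (0.70), Tnfrsf9 (2.13), Tyr (0.87), Uhmk1 (2.41) and Xylt1 (2.61). It was negative for 2610019E17Rik (-1.99), B2m (-0.68), Ddx58 (-2.19), Irf7 (-2.56), Isg15 (-1.41), Kcnq1ot1 (-2.04), Nrp (-2.70), Sgk2 (-0.98), Slc2a4rg-ps (-2.03) and Snord22 (-2.01). Differences rose with transcript length (rho = 0.45), and all 25 named here were still called with that trend removed. Of 12 fits that left out a library, 2 ended the call of H2-K1 and 1 that of Tnfrsf9. Genes with 3 counts or fewer in a group, and calls that ended in more than 2 of the other fits, were left out.

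Between TNFa with IFNb and TNFa with IFNg the difference was called for 4673 genes. It was positive for Anubl1 (3.12), Aspm (2.96), Casc5 (3.03), Fam83d (2.86), Kbtbd11 (3.09) and the receptor kinase Kit (2.92). It was negative for A430105I19Rik (-2.43), Apod (-3.91), Ccl5 (-3.26), Cdsn (-2.48), Cxcl11 (-4.37), the nuclear noncoding RNA Neat1 (-2.91) and Ngfr (-2.85). The call of Ngfr ended without IFNb replicate 2 (-2.63) or 3 (-2.67). These differences too rose with transcript length (rho = 0.363), and all 13 named were still called with that trend removed. Between Ptpn2-null and control cells the difference was called for 1 gene, H2-K1 (-0.56), a call that ended in 9 of 12 fits that left out a library.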

How the results depend on the processing

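Genes called for TNFa added to IFNb in control cells numbered 1038, and between 935 (DESeq2) and 1408 (only the compared groups in the fit) under the other settings, or 792 to 891 with a library left out. With a replicate block the count was 1038, of which 1021 were shared. Deviations of samples with the same number were nearly uncorrelated (-0.045 to 0.085). Such deviations hold counting noise, so these correlations cannot decide whether the numbers pair the samples. Leaving out a library gave 4495 to 5127 calls for TNFa alone, 2223 to 2823 for its difference from TNFa with IFNb, 4053 to 4767 for the difference from TNFa with IFNg, 850 to 890 in Ptpn2-null cells, 2718 to 3221 for IFNb alone and 0 to 1 for the difference between genotypes. In Ptpn2-null cells the count was 1765 with only the compared groups. The difference between genotypes gave 6 genes with no filter, 3 with only the compared groups and 2 with the length trend removed. Of 111 named called genes (107 with a value when only the compared groups were fitted) none reversed in the settings run; DESeq2 ended 6 calls, no filter 5, removal of the length trend 2 (A430105I19Rik and Sod2), only the compared groups 0, the block and RLE scaling 1 each (Lgals3bp), and leaving out a library 7 to 14. The causes were not tested. Depth limits genes with few counts in the IFNb group, such as Bcl3, Lif and Tnfrsf9.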
